A study of Mus musculus with 4 samples.

Results

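Collagens and the matrix genes that fibroblast-like cells make alongside them were followed in mouse liver after infusion of short-chain fatty acids into the cecum. The set holds every gene whose symbol has the collagen form (Col, a type number, a, a chain number), together with Dpt, Mmp2, Dcn, Lum, Fbn1, Eln, Timp1 and Pdgfrb. It was read from array probe sets that carry a single symbol in the platform annotation, averaged per symbol. This gave 49 of the 18820 genes measured, of which 42 are collagens and 7 are other matrix genes; Fbn1 was not analysed here.

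Male C57Bl/6J mice, 16-17 weeks old and fed a palm oil diet for 6 weeks, carried a permanent cecal catheter. They received phosphate-buffered saline (control) or 0.3 M of the sodium salt of [1-13C]acetate, [2-13C]propionate or [2,4-13C2]butyrate at 0.2 ml/h, which delivered 2.4 mmol/h/kg of acid, and livers were taken after 6 h. RNA was pooled within each group and each pool read on 1 array: the control, acetate and propionate pools hold 6 mice each and the butyrate pool 4. With 1 array a group there are no replicates, so no difference below has a replicate check or a test, and each liver weighs more in the butyrate pool. All 3 comparisons with saline use the same control pool.

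The extracellular matrix of the liver is sparse. Fibrillar collagens and small proteoglycans lie mainly around portal tracts, central veins and the capsule, while basement membrane collagens line vessels and ducts. Stellate cells and portal fibroblasts make most of it and make far more when they are activated in fibrosis. Collagen chains are joined in threes, hydroxylated and cross-linked, and their turnover is set by matrix metalloproteinases and the TIMP inhibitors. Whole liver was measured, so more cells of a type and more RNA per cell cannot be told apart.

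Values are log2 expression levels. Genes that differed by at least 1.5-fold (0.58 on the log2 scale) were counted, over genes whose mean over the 4 pools reached the median of all genes, a level floor of 5.55 with 9410 genes at or above it. Of the 49 members, 17 were at or above that floor, and all 17 were so in every pool; they are 12 collagens and 5 other matrix genes. The other 32 members lie below the floor, 31 of them in every pool and Col20a1 in all but the control pool (5.59). Their log2 ratios to control ran from -0.47 to 0.50 with acetate, -0.32 to 0.52 with propionate and -0.50 to 0.30 with butyrate. The mean level of 9 hepatocyte markers was 13.046, 13.051, 13.065 and 13.06 in the control, acetate, propionate and butyrate pools. The highest value of any probe set was 13.64 to 13.74 per pool. Markers this near the top cannot show differing parts of other tissues. Scatter near background can be read from 1266 genes of families that liver does not use, such as olfactory receptors. Their log2 ratios to control had an SD across genes of 0.17 with acetate, 0.20 with propionate and 0.18 with butyrate. Their mean levels were 3.02 to 3.03, lower than those of the members below the floor (4.59 to 4.76). The SDs are therefore no measure of scatter at the members' levels.

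The 17 matrix genes at or above the floor were mostly higher in the acetate pool, somewhat less so in the propionate pool, and close to control in the butyrate pool. Over all 49 members the medians of acetate and propionate had the opposite order. With acetate, 5 of the 17 members at or above the floor were at least 1.5-fold above control (Dpt, Mmp2, Col6a3, Col3a1 and Col1a1), where 0.627% of all genes at or above the floor were. With propionate 2 were (Dpt and Mmp2), against 0.701% of all genes, and none of the 12 collagens was. Members were chosen with earlier results of these data known, so these shares describe the set and do not test it. With butyrate none was higher or lower by that amount, against 0.755% and 0.361% of all genes. No member, at any level, was 1.5-fold lower with acetate or propionate, where 0.51% and 0.404% of genes at or above the floor and 0.494% and 0.489% of all genes were. The median log2 ratios of the 17 members were 0.41, 0.27 and 0.12, beside -0.011, -0.034 and -0.0036 for all genes at or above the floor. Over all 49 members the medians were 0.18, 0.23 and 0.028, and 41, 41 and 27 of them lay above control. Of all genes 50.54%, 47.84% and 49.03% did. Of the 32 members below the floor, 26, 25 and 14 lay above control, beside 54.87%, 56.47% and 49.39% of all genes below it.

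At a threshold of 1.2-fold, 11 of the 17 were higher with acetate and 9 with propionate, where 4.65% and 4.55% of all genes at or above the floor were; none was lower, where 5.26% and 5.64% were. With butyrate none of the 17 passed 1.2-fold in either direction (4.87% of all genes higher, 3.73% lower). At 2-fold Dpt and Mmp2 were higher with acetate, against 0.149% of all genes, and no member was with propionate, against 0.0744%. With the mean of the other 3 pools as reference in place of control, Col1a1 (0.46) and Col3a1 (0.52) with acetate and Dpt (0.32) and Mmp2 (0.32) with propionate were no longer past 1.5-fold.

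**Figure D1:**
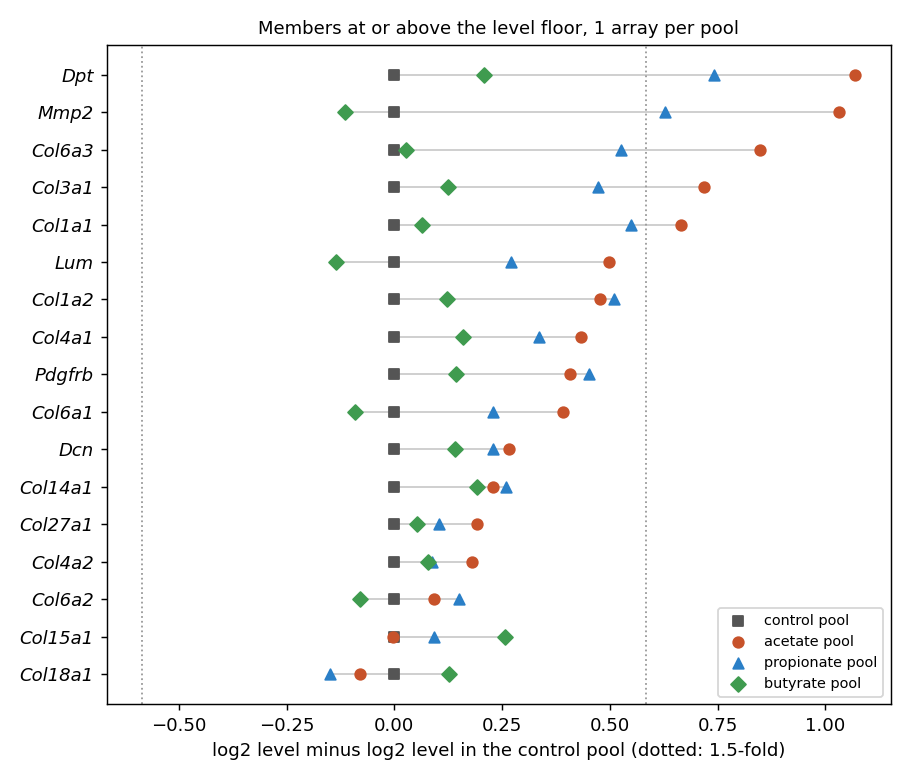
Log2 level of each of the 17 members at or above the level floor, minus its level in the control pool (x axis), 1 array per pool; dotted lines mark 1.5-fold and grey lines join the lowest and the highest pool. The acetate and propionate pools lie to the right of the control and butyrate pools for all members but Col15a1 and Col18a1.

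Dpt, dermatopontin, a small protein that binds decorin and helps collagen fibrils assemble, had the highest ratio of all members with acetate and with propionate. It stood at 6.86 in the control pool, 7.92 with acetate, 7.60 with propionate and 7.06 with butyrate. This is 2.10-fold, 1.67-fold and 1.16-fold above control, and the acetate ratio ranked 10 of 9410 genes from the top. Mmp2, gelatinase A, which cleaves denatured and basement membrane collagen and is a product of stromal cells, stood at 6.21, 7.25, 6.84 and 6.10 in the same order of pools. It was 2.04-fold above control with acetate and 1.54-fold with propionate, and was lowest in the butyrate pool. Timp1, a secreted inhibitor of metalloproteinases, lay below the floor in every pool (4.26, 4.75, 4.63 and 3.76). Its order of pools was that of Mmp2, with log2 ratios to control of 0.48, 0.37 and -0.50.

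Fibrillar collagens give tissue its tensile strength. Col1a1, a chain of type I collagen, stood at 5.87 in control, 6.54 with acetate, 6.42 with propionate and 5.94 with butyrate. Its partner chain Col1a2 stood at 5.88, 6.36, 6.39 and 6.00. Both chains were therefore higher in the acetate and propionate pools than in the other pair of pools, with log2 ratios to control of 0.66 and 0.55 for Col1a1 and 0.48 and 0.51 for Col1a2. Col3a1, the type III chain that forms thin reticular fibres, stood at 5.56, 6.28, 6.04 and 5.69. It was 1.65-fold above control with acetate, from a control level just above the floor. Col27a1, a fibrillar chain mostly known from cartilage, differed little, at 5.58, 5.77, 5.68 and 5.63. The other 7 fibrillar chains were below the floor. Of all 11, 10 lay above control with acetate, 11 with propionate and 9 with butyrate, with medians of 0.20, 0.23 and 0.084. Of all genes 50.54%, 47.84% and 49.03% lay above control. Col5a1 is read by 2 probe sets that differed, at 0.24 and -0.13 with acetate.

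Promoter sequence is shown for Col3a1, Col1a2 and Col6a1, which were higher together in the acetate and propionate pools. They are the 3 members with the largest acetate ratios among those at or above the floor with an entry in the RefSeq table of promoters (GRCm38.p6) whose 150 bases before the start lie in no annotated gene. Each runs 5′ to 3′ along the gene's strand and ends at the base before the start: Col3a1 at chr1:45311388-45311537 (+), Col1a2 at chr6:4505468-4505617 (+) and Col6a1 at chr10:76726045-76726194 (-). Capitals mark matches, on either strand, to 3 common promoter motifs: the CCAAT box, the TATA box (searched as TATAAA) and the GC box that Sp1 binds (searched as GGGCGG).
Col3a1: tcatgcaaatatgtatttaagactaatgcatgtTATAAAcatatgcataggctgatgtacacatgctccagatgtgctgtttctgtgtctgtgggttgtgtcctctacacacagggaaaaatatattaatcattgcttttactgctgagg
Col1a2: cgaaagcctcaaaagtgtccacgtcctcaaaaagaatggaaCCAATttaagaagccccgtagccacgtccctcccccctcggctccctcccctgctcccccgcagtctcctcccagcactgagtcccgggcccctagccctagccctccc
Col6a1: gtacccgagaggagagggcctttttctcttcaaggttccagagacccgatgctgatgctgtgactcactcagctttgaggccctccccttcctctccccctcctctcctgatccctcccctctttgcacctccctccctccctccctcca
The 3 stretches share no match. Col1a2 has a CCAAT match 109 bases before the start and Col3a1 a TATAAA match 117 bases before it. In the whole windows, 250 bases before to 50 after the start, CCAAT was found on either strand in 4 of 13 windows of the 11 members at or above the floor with an entry, and in 37.4% of all 32851 windows. TATAAA was in 2 of 13 against 13.6%, and GGGCGG in 7 of 13 against 35.7%. Over the 39 windows of the 36 members with an entry, the counts were 13, 6 and 23. No matches overlap in the printed stretches, and a match describes the letters only.

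Type VI collagen builds beaded microfibrils around cells, and its 3 common chains assemble into 1 molecule. Col6a3 stood at 5.64, 6.49, 6.17 and 5.67 in the control, acetate, propionate and butyrate pools. Its ratio to control was 1.80-fold with acetate and 1.44-fold with propionate, the highest of any collagen with acetate. Col6a1 stood at 6.06, 6.45, 6.28 and 5.96. Col6a2, its direct neighbour in the gene order of chromosome 10, stood at 6.03, 6.12, 6.18 and 5.95. The 3 chains thus had log2 ratios of 0.85, 0.39 and 0.091 with acetate, while with butyrate they were at 0.028, -0.091 and -0.079. The less common chains Col6a4, Col6a5 and Col6a6 were below the floor; Col6a4 had the lowest acetate ratio of all members (-0.47).

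Network-forming type IV collagen is the sheet of basement membranes. Col4a1 stood at 5.94, 6.38, 6.28 and 6.10, and Col4a2 at 5.90, 6.08, 5.98 and 5.97. These chains pair in the common type IV molecule, and their genes are neighbours that are read in opposite directions, with promoter windows that share 78 of 300 bases. Their log2 ratios to control were 0.43 and 0.18 with acetate and 0.33 and 0.086 with propionate. The other network-forming chains lay below the floor, among them Col8a1, at 4.33, 4.63, 4.85 and 4.06.

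Among fibril-associated collagens only Col14a1, a chain on the surface of fibrils, was above the floor. It stood at 8.27, 8.50, 8.53 and 8.47, higher than control by similar amounts in all 3 acid pools (0.23, 0.26 and 0.19). The multiplexins Col15a1 and Col18a1 had another order of pools. Col18a1, whose fragment is endostatin and which hepatocytes themselves make, stood at 9.37, 9.29, 9.23 and 9.50, lowest in the propionate pool. Col15a1, a basement membrane-associated chain, stood at 5.92, 5.92, 6.01 and 6.18. The butyrate pool was the highest for both, by 0.13 over control for Col18a1 and by 0.26 for Col15a1. The 4 transmembrane collagens were all below the floor and had medians of 0.086, 0.061 and 0.077.

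**Figure D2:**
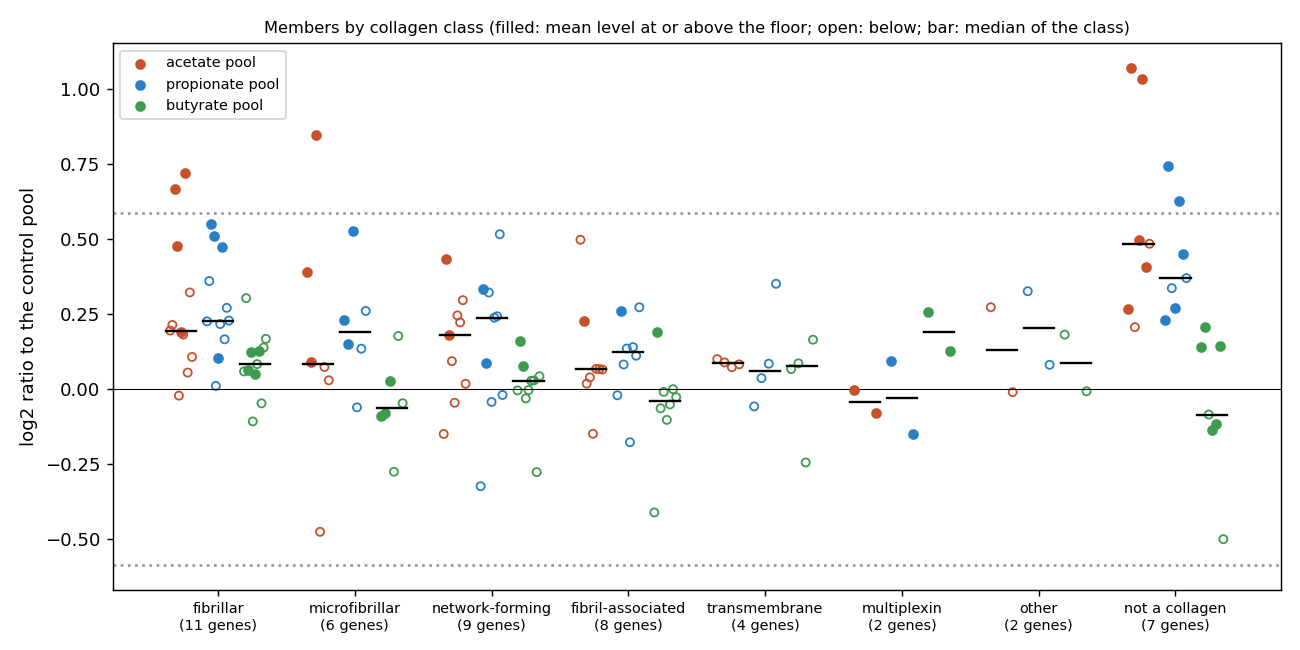
Log2 ratio to the control pool (y axis) of all 49 members by collagen class (x axis), for the acetate, propionate and butyrate pools; filled points have a mean level at or above the floor, open points lie below it, and black bars are class medians. The non-collagen genes have medians of 0.48, 0.37 and -0.084, and the multiplexins are the class at or below control with acetate.

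The small leucine-rich proteoglycans regulate the width of collagen fibrils. Lum, lumican, stood at 6.44, 6.94, 6.71 and 6.31, so that it was 1.41-fold above control with acetate and 1.21-fold with propionate. Dcn, decorin, stood at 11.59, 11.86, 11.82 and 11.73. Its order of pools was acetate, propionate, butyrate, control, with log2 ratios of 0.27, 0.23 and 0.14. Lum and Dcn are direct neighbours in the gene order of chromosome 10. Pdgfrb, the growth factor receptor that drives stellate cell division and marks these cells and pericytes, stood at 6.88, 7.29, 7.34 and 7.03. Eln, the elastin of vessel walls, was below the floor at 4.71, 4.91, 5.04 and 4.62.

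In 15 of the 17 members at or above the floor, both the acetate and the propionate pool were higher than both the control and the butyrate pool. This held for 15.9% of all genes at or above the floor. The full order acetate, propionate, butyrate, control was found in 8 of the 17 and in 4.14% of all such genes. Among the 32 members below the floor, 18 had acetate and propionate above the other pools, beside 23.9% of all genes below it. For 20 of those 32 the propionate pool was the highest and for 6 the acetate pool, beside 30.2% and 25.5% of all genes below the floor. Of the 17 at or above it, propionate was the highest for 4 and acetate for 11, beside 15.1% and 26.3% of all such genes.

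**Figure D3:**
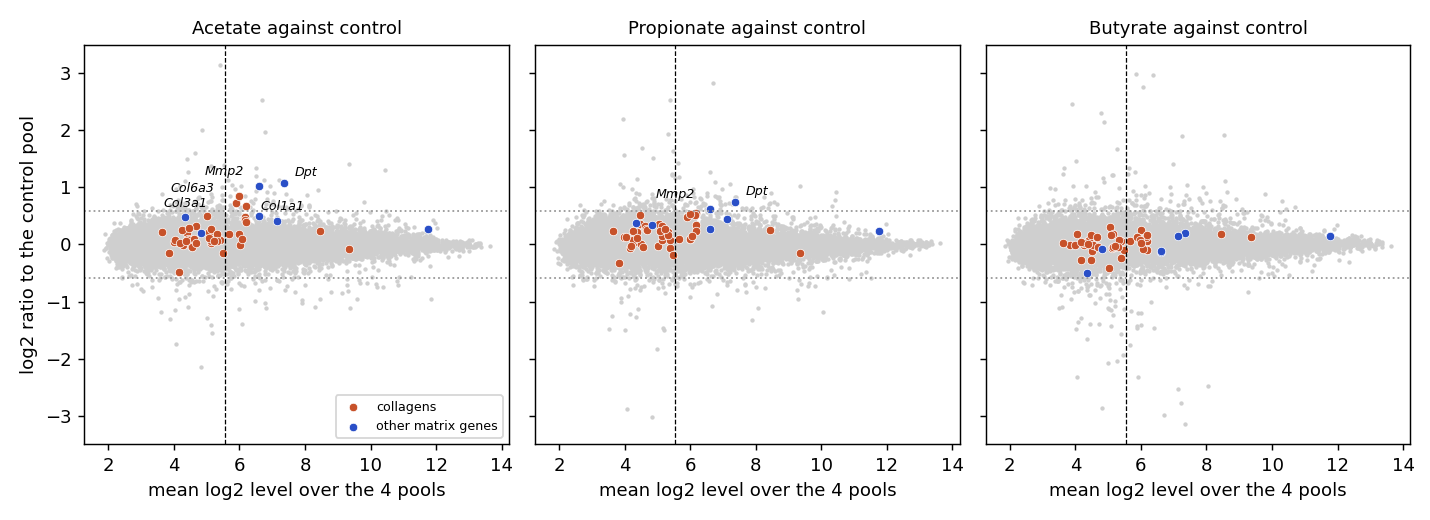
Log2 ratio to the control pool (y axis) against the mean log2 level over the 4 pools (x axis) of all 18820 genes (grey), with the 42 collagens and the 7 other matrix genes in colour; the dashed line is the level floor and dotted lines mark 1.5-fold. Dpt, Mmp2, Col6a3, Col3a1 and Col1a1 lie above the dotted line with acetate, Dpt and Mmp2 with propionate, and no member with butyrate.

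The acids, which differ in the length of their carbon chain, were infused at the same concentration, rate and time, so their pools can be set against one another in 3 pairs. With 1 pool per acid the pairs give sizes without an interval. Against acetate, the butyrate pool was at least 1.5-fold lower for 6 of the 17 members at or above the floor and higher for none, where 0.85% of all genes were lower and 1.05% higher. Mmp2 was 2.21-fold lower, Dpt 1.82-fold, Col6a3 1.77-fold, Lum 1.55-fold, Col1a1 1.52-fold and Col3a1 1.51-fold. Below the floor Timp1 and Col12a1 were also lower, by 1.98-fold and 1.88-fold, which made 8 of 49 where 0.956% of all genes were. Col12a1, a chain on fibrils under tension, stood at 5.01, 5.51, 4.99 and 4.60. At 1.2-fold 10 of the 17 were lower and none higher, against 6.25% and 7.28%, and at 2-fold Mmp2 was lower, against 0.266%. The median log2 ratio of the 17 was -0.27, beside 0.0082 for all genes at or above the floor.

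Butyrate against propionate gave a smaller count. Mmp2 was 1.67-fold lower with butyrate and was the only one of the 17 past 1.5-fold, where 0.606% of all genes at or above the floor were lower and 0.351% higher. Timp1 (1.83-fold) and Col8a1 (1.73-fold), both below the floor, were also lower, which made 3 of 49 where 0.845% of all genes were. At 1.2-fold, 10 of the 17 differed, of which 9 were lower and 1 higher (Col18a1), against 4.1% and 6.59% of all genes at or above the floor. At 2-fold no member was lower, against 0.213%. The median of the 17 was -0.31, beside 0.034 for all genes. Propionate against acetate gave no member past 1.5-fold at any level; 0.414% of all genes at or above the floor were higher and 0.138% lower, and 0.383% and 0.213% of genes of any level. At 1.2-fold 3 of the 17 were lower and none higher, against 3.67% and 3.24%. The largest differences there were those of Mmp2 (-0.40), Dpt (-0.33) and Col6a3 (-0.32), all lower with propionate, and the median was -0.094.

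Other genes of the matrix pathway were followed in lists, counted at any level; of all 18820 genes 0.696%, 0.776% and 0.728% were 1.5-fold above control with acetate, propionate and butyrate, and 0.494%, 0.489% and 0.616% below it. Among 26 measured genes for collagen folding, modification and cross-linking, none was 1.5-fold above control with acetate or butyrate and 1 was with propionate. That gene was Pcolce2, an enhancer of procollagen cleavage, at 5.99, 5.73, 6.73 and 6.28. The medians of the list were 0.091, 0.073 and -0.032. With acetate the largest ratios at or above the floor were those of the procollagen enhancer Pcolce (0.42), the prolyl hydroxylase subunit P4ha1 (0.41), the collagen-binding Sparc (0.37), the collagen chaperone Serpinh1 (0.34) and the prolyl 3-hydroxylase P3h1 (-0.29). Of 38 other matrix proteins, 19, 13 and 2 were highest in the acetate, propionate and butyrate pools. Of all genes 25.9%, 22.6% and 26.2% were. The medians of these 38 were 0.16, 0.087 and -0.014. Lama2, a laminin chain with a mean level below the floor, was the only one past 1.5-fold, at 0.65 with acetate and 0.63 with propionate. Among genes of the list at or above the floor, the largest acetate ratios were those of Nid1, nidogen of basement membranes (0.47), and the TGF-beta binding protein Ltbp1 (0.43).

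Proteases and their inhibitors had medians of 0.19, 0.043 and -0.037 over 22 genes, and 4, 1 and 1 of them were 1.5-fold above control. All 4 with acetate had mean levels below the floor. They were the macrophage elastase Mmp12 (2.00), Mmp7 (0.79), the collagen-degrading cathepsin Ctsk (0.67) and the aggrecan-cleaving Adamts5 (0.61). Mmp12 stood at 4.02, 6.02, 5.54 and 3.89, above the floor in the acetate pool alone, and its ratio was 1.52 with propionate. With butyrate the gene past 1.5-fold was Mmp8, a neutrophil collagenase (0.63, below the floor). Collagen receptors differed little, with medians of 0.12, 0.082 and 0.12 over 9 genes and none past 1.5-fold. Among 23 genes of TGF-beta and PDGF signalling, the main fibrogenic pathways of the liver, the medians were 0.082, 0.0031 and -0.0019. Ccn2, a classical TGF-beta target, was at 0.45, 0.31 and 0.46, and Pdgfra at 0.45, 0.24 and 0.082. The next largest acetate ratios at or above the floor lay below control: Inhba (-0.32), Smad7 (-0.26) and Smad6 (-0.22). Smad7 was at -0.31 with butyrate. Tgfb3, with a mean level below the floor, was the only one past 1.5-fold (0.69 with acetate).

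Markers of the cells that make matrix were read in the same way. The lists share some genes, so they are not separate readings. Pdgfra is counted with signalling, stellate cell and portal fibroblast genes. Smoc2 is counted with other matrix proteins and portal fibroblast markers, and Krt19 with mesothelial and cholangiocyte markers. Of 16 stellate cell markers, 14, 13 and 11 lay above control, beside 50.54%, 47.84% and 49.03% of all genes. At or above the floor, where 15 of the 16 markers are, 46.21%, 39.21% and 48.66% of all genes lay above control. The mean levels of the 16 were 7.30, 7.50, 7.45 and 7.33 in the control, acetate, propionate and butyrate pools. Cygb, the stellate cell globin, was at 0.52, 0.31 and 0.065, while Lrat, which stores vitamin A in these cells, was at 0.15, 0.060 and 0.29. Des was at -0.75 with butyrate and is also a muscle gene. Acetate was the highest pool for 6 of 12 portal and adventitial fibroblast markers, beside 25.9% of all genes. Butyrate was the lowest for 6, beside 26.8%. The mean levels of the 12 were 5.42, 5.64, 5.58 and 5.44. Cd34, also an endothelial gene, was at 0.61 with acetate. The defining marker Thy1 was below the floor in every pool, with ratios of -0.24, 0.084 and 0.095. Smooth muscle and myofibroblast markers had mean levels of 5.38, 5.64, 5.42 and 5.22. Acetate was the highest pool for 8 of these 10 and butyrate the lowest for 7, beside 25.9% and 26.8% of all genes. Acta2, the actin of activated stellate cells and vessel walls, stood at 6.71, 7.20, 6.60 and 6.39. The 8 mesothelial markers of the liver's capsule had mean levels of 5.01, 5.15, 5.13 and 5.08.

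**Figure D4:**
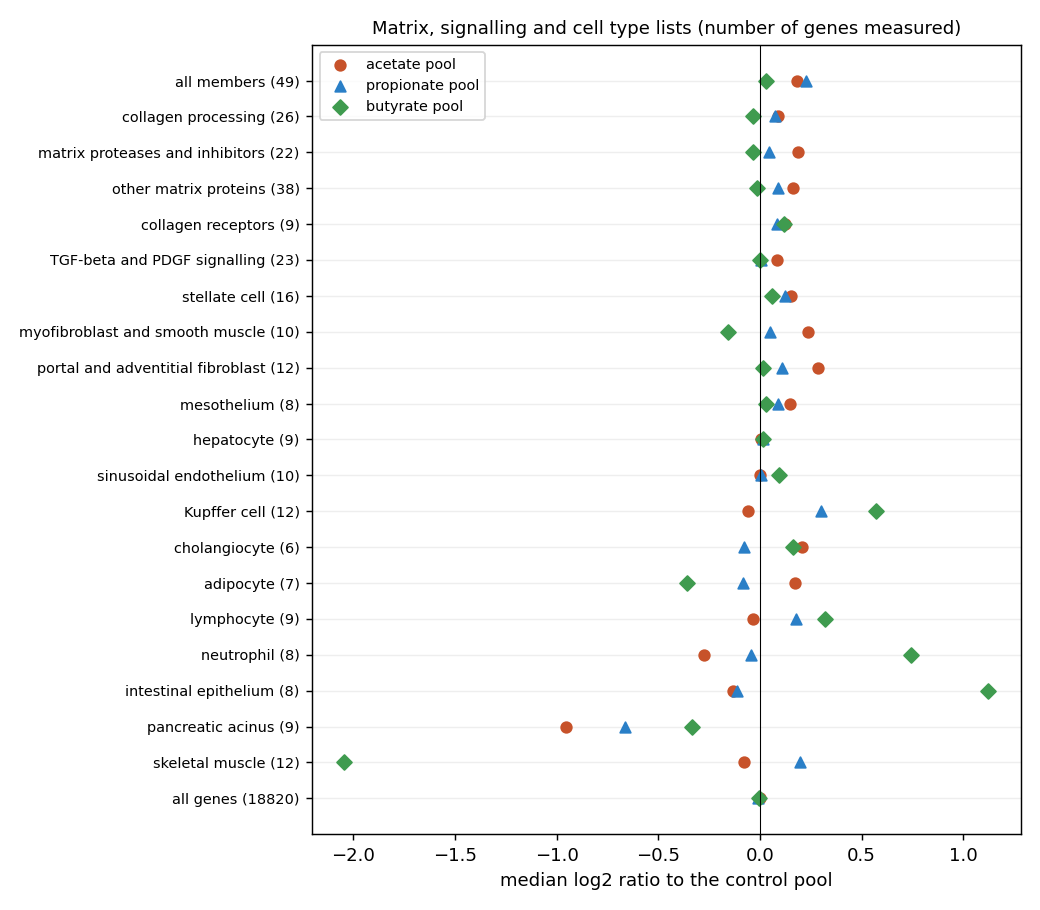
Median log2 ratio to the control pool (x axis) of the 49 members, of the matrix, signalling and cell type lists and of all genes (y axis, with the number of genes measured). Stromal lists lie between -0.16 and 0.28, while skeletal muscle (-2.04) and intestinal epithelium markers (1.12) lie farther out with butyrate and pancreatic markers with acetate (-0.95).

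Markers of tissues outside the liver also differed between pools, and some of those tissues hold collagen-rich stroma. All 12 skeletal muscle markers were at least 1.5-fold below control with butyrate, with mean levels of 6.99, 6.92, 7.18 and 4.96. Propionate was the highest pool for 9 of them, beside 22.6% of all genes. Butyrate was the highest pool for all 8 intestinal epithelium markers, beside 26.2% of all genes. With butyrate 4 of them were 1.5-fold above control (mean levels 6.07, 5.98, 5.97 and 7.47). Control was the highest pool for all 9 pancreatic markers, beside 25.3% of all genes (9.74, 8.84, 9.09 and 9.40). Butyrate was the lowest pool for all 7 adipocyte markers, beside 26.8% of all genes. Their mean levels were 5.80, 6.00, 5.58 and 5.33, and the defining marker Adipoq was below the floor in every pool. Kupffer cell markers, all 12 highest in the butyrate pool beside 26.2% of all genes, had mean levels of 8.78, 8.75, 9.13 and 9.40. Among the other cell types, the medians with acetate, propionate and butyrate were 0.0023, 0.0041 and 0.091 for sinusoidal endothelium and 0.21, -0.077 and 0.16 for cholangiocytes. They were -0.0355, 0.18 and 0.32 for lymphocytes and -0.27, -0.043 and 0.74 for neutrophils. The part of these cell types in the matrix values was not tested.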

How the data were processed

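Liver RNA of 22 mice in 4 pools was measured on 4 arrays. The deposited values are log2 expression levels per probe set, made by the authors with RMA per the submitters' processing notes (version not given in the sources used here). RMA makes the arrays' distributions alike, so a shift of all genes could not be seen. Of 35556 probe sets, 21218 had 1 symbol in GEO's platform annotation, 1881 several and 12457 none; those with 1 symbol were averaged per gene. All 49 members (53 probe sets) matched a RefSeq gene table (GRCm38.p6, used for names and gene order) by Entrez ID. Levels of different genes are compared only to set the floor, to read the background families and to place hepatocyte markers in the arrays' range.

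For 6 comparisons the log2 values of 2 arrays were subtracted, with no test; the number of arrays limits the precision. The named genes are the members at or above the floor and those past 1.5-fold in any comparison, plus up to 5 per list by size of ratio at or above the floor and defining markers. Outside this rule, list genes below the floor (Mmp12, Mmp7, Mmp8, Ctsk, Adamts5, Lama2 and Tgfb3) and members below it that passed no threshold of 1.5-fold (Eln, Col20a1, Col5a1, Col5a2, Col4a5, Col4a6, Col6a4, Col6a5 and Col6a6) were named after their values were seen. Members and lists were chosen with earlier results of these data known. Alternatives were no floor, 1.2-fold and 2-fold thresholds, cyclic loess (limma 3.58.1), centring, the brightest probe set, collagens only, a mean in place of the median, and the mean of the other 3 pools as reference. Calculations used Python 3.11.15 and pandas 2.3.3. The arithmetic of ratios and counts was checked on simulated data with large differences fixed in advance, which does not test the calls made here.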

Additional observations from a re-analysis of the deposited data

How the results depend on the processing

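Cyclic loess, centring of each array and the brightest probe set left all counts within 1.5 times and moved no median by 0.1 (log2) or more; centring put Col1a1 with propionate just past 1.5-fold (0.59). With a 1.2-fold threshold, 11 of the 17 members were higher with acetate and 9 with propionate, where 4.65% and 4.55% of all genes at or above the floor were. For propionate against acetate 3 were lower, beside 3.67% of such genes, and for butyrate against acetate 10, beside 6.25%. For butyrate against propionate 9 were lower, beside 4.1%, and Col18a1 was higher, beside 6.59%. With a 2-fold threshold 2 were higher with acetate and 0 with propionate, beside 0.149% and 0.0744%. Butyrate then had 1 lower against acetate and 0 against propionate, beside 0.266% and 0.213%. Collagens alone, 12 genes, gave 3, 0, 3 and 0 past 1.5-fold for acetate, propionate, butyrate against acetate and butyrate against propionate. Of all genes at or above the floor 0.627% and 0.701% were higher with acetate and propionate. With butyrate 0.85% were lower against acetate and 0.606% against propionate. The median of the collagens was -0.20 for butyrate against propionate. Without the floor, butyrate against propionate had 3 members past 1.5-fold, and the medians became 0.18 for acetate, 0.031 for propionate against acetate, -0.10 for butyrate against acetate and -0.18 for butyrate against propionate. With the mean of the other 3 pools as reference, which holds the other acids, 3 members passed with acetate (Dpt, Mmp2 and Col6a3), 0 with propionate and 1 with butyrate (Mmp2, at -0.67). The shares of all genes past 1.5-fold with that reference were not computed, so these counts cannot be called many or few. The medians of the 17 members were then 0.27, 0.15 and -0.16, so the butyrate median reversed. By construction the reference for butyrate holds the acetate and propionate pools. No paired analysis was possible because each group has a single array.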

Other observations

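Probe sets that carry several symbols stayed out of the comparisons. One of them names Tcfl5 and Col9a3, a cartilage-type collagen chain, and stood at 4.88, 5.22, 5.24 and 4.90 in the control, acetate, propionate and butyrate pools. Another names Mir711 and Col7a1, the anchoring fibril collagen, and stood at 4.96, 4.99, 5.18 and 4.95. Both lie below the level floor in every pool.

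Neighbouring collagen genes had log2 ratios that were close for some pairs and apart for others. Col3a1 and Col5a2 are direct neighbours on chromosome 1, and their log2 ratios to control were 0.72 and 0.32 with acetate, 0.47 and 0.27 with propionate and 0.13 and 0.14 with butyrate. Col4a5 and Col4a6, neighbours on chromosome X and both below the floor, were at 0.25 and 0.22 with acetate and at 0.24 and 0.24 with propionate. Col6a4, Col6a5 and Col6a6 lie together on chromosome 9 and were at -0.47, 0.074 and 0.030 with acetate.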
